A study of Mus musculus with 12 samples.

Results

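The integrated stress response and the unfolded protein response are linked programs by which cells slow protein synthesis and rebuild folding capacity. The set described here holds 10 genes, chosen by symbol from those programs: the stress sensors Eif2ak3 (PERK), Ern1 (IRE1) and Atf6, the transcription factors Atf4, Xbp1 and Ddit3 (CHOP), and the target genes Chac1, Trib3, Asns and Herpud1. All 10 were among the 27933 genes of the count table, and all 10 were among the 14621 genes with enough counts to test.

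The RNA came from the thoracic aorta, freed of fat before freezing, of C57BL/6J mice and was sequenced as 12 libraries, 3 per group. The groups were KO nicotine (libraries 3, 4 and 5), KO air (1, 2 and 7), WT nicotine (6, 11 and 12) and WT air (8, 9 and 10). KO denotes mice labelled as knockouts of the alpha7 nicotinic acetylcholine receptor, and WT denotes wild-type mice. Exposure to nicotine vapor, or to room air as control, began at 5 months of age and lasted 12 weeks, and the tissue was taken at 8 months. The design asks how aortic expression responds to inhaled nicotine and whether that response differs without the receptor.

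Library totals ran from 10240031 to 12628323 counts, and 17995 to 19484 genes were detected per library. Chrna7, which encodes the alpha7 receptor, had 25, 8 and 21 counts in KO nicotine libraries, 26, 18 and 28 in KO air, 9, 18 and 26 in WT nicotine and 22, 35 and 37 in WT air. The KO and WT counts overlapped. The deleted part of the gene is not given in the sources used here, so a count over the whole gene does not check the genotype, and genotypes are as labelled. KO nicotine 3 stood apart by liver RNA, with 2334 CPM (counts scaled to library size) summed over 5 hepatocyte markers, against 20.04 to 435 CPM in the other 11 libraries. It also had the highest sum of 5 skeletal muscle markers, 157.9 CPM, against 7.446 to 39.2 CPM in the other 11. Markers of smooth muscle, the defining cell of the aortic wall, were abundant in every library, at 22090 to 44020 CPM summed over 6 genes.

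In these programs, unfolded protein in the endoplasmic reticulum (ER) activates PERK, IRE1 and ATF6. PERK, like kinases that sense amino acid shortage, viral RNA or heme deficiency, phosphorylates the initiation factor eIF2 alpha, which lowers general translation and favours translation of Atf4 mRNA. IRE1 splices Xbp1 mRNA, and ATF6 is cut free from its membrane anchor in the Golgi, so that each yields an active transcription factor. These steps act on translation, splicing and proteolysis, and gene-level counts do not measure them.

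ATF4 binds C/EBP-ATF response elements, and the promoters that hold a match are shown because Trib3, Asns, Chac1 and Herpud1 carry the target side of the results. The RefSeq promoter table (GRCm38.p6) held 9 of the 10 genes, each as 300 bases from 250 before to 50 after the start site; Atf6 was not matched. The pattern TGATGNAAN, searched on both strands, occurred in 4 of these 9 promoters and in 3.95% of all 32851 promoters of the table. Capitals mark the match, and each sequence reads 5′ to 3′ on the strand of its gene.
Asns (chr6:7693160-7693459, minus strand): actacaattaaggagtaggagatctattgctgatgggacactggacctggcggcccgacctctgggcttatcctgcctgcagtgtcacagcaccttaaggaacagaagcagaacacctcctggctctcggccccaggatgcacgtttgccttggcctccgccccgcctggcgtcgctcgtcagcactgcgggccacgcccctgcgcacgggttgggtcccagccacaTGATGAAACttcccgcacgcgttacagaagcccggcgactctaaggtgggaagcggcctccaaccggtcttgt
Chac1 (chr2:119350992-119351291, plus strand): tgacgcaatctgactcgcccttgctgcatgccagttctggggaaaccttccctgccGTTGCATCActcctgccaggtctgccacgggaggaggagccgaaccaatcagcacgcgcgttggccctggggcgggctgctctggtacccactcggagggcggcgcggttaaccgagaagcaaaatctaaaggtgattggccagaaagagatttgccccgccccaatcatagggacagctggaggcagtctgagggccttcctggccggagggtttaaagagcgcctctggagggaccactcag
Herpud1 (chr8:94386179-94386478, plus strand): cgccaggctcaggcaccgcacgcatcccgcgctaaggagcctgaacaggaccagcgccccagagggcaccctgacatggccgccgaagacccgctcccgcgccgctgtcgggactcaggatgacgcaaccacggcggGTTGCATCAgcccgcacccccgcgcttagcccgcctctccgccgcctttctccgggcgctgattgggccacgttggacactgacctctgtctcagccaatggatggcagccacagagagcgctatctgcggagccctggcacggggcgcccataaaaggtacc
Trib3 (chr2:152344011-152344310, minus strand): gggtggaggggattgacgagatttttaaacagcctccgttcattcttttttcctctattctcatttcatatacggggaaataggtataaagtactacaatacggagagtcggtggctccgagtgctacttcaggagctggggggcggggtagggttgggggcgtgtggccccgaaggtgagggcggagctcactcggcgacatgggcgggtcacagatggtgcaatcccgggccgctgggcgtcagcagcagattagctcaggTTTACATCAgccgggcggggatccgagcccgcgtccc
The Asns match lay on the strand of the gene and began 23 bases before the start site. The matches of Chac1, Herpud1 and Trib3 lay on the opposite strand, beginning 194 and 113 bases before the start site for Chac1 and Herpud1 and at base 13 after it for Trib3. The ER stress response element, CCAAT and CCACG with 9 bases between them, also searched on both strands, was found in 0 of the 9 promoters and in 0.119% of all of them. Only this form of the element was searched, so the count does not show that a promoter lacks other forms. A match describes these letters only and shows neither binding nor a response.

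Per kilobase of merged exon, the factors and Herpud1 were the more abundant members, and Trib3 and Chac1 the scarcest. Median levels over the 12 libraries were 42.6 CPM per kilobase for Herpud1 (range 36.0 to 76.3), 37.2 for Atf4 (31.4 to 70.2), 28.5 for Xbp1 (22.2 to 39.9) and 14.9 for Ddit3 (11.4 to 29.3). The sensors followed, with 10.8 for Atf6 (9.64 to 12.8), 7.83 for Eif2ak3 (5.48 to 8.54) and 6.62 for Ern1 (5.44 to 7.36) on the same scale. Asns had 4.66 (1.99 to 10.04), Trib3 1.76 (0.569 to 2.57) and Chac1 0.741 (0.0519 to 1.04). Ranges overlapped for 8 of the 9 pairs of neighbours in this order, the exception being Atf6 above Eif2ak3. In these bulk samples, fewer cells of a type and less RNA per cell cannot be told apart. Merged exons are those of GENCODE M21, which is on another build than the counts.

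**Figure D1:**
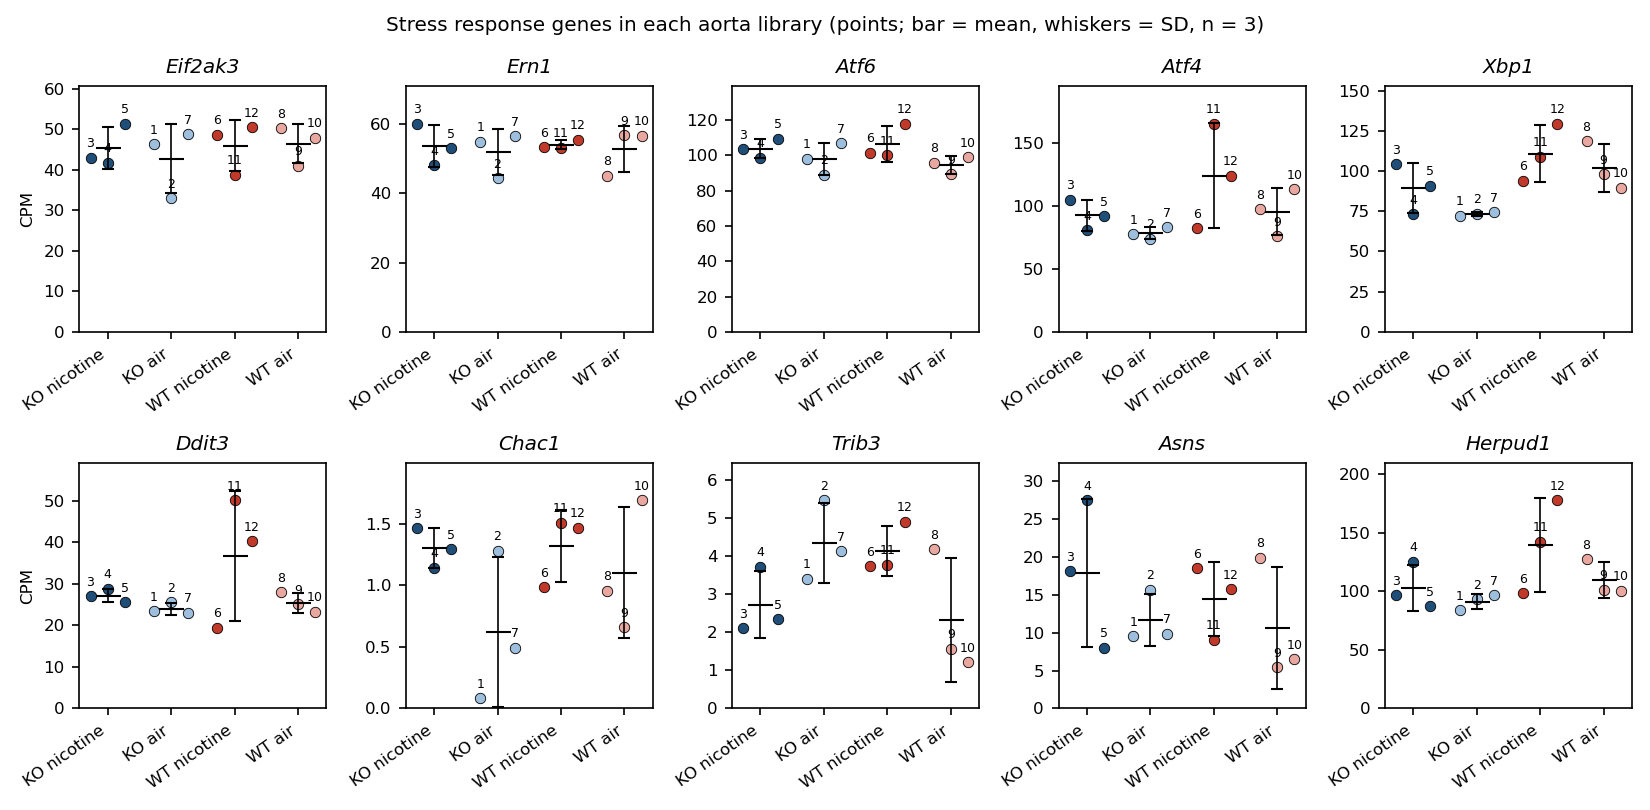
CPM of the 10 genes in each of 12 aorta libraries, numbered as in their labels. Points are libraries, the bar is the group mean and whiskers are the SD (n = 3 per group). Ern1 runs from 44.4 to 60.2 CPM over all libraries, Ddit3 in WT nicotine spans 19.5 to 50.2 CPM, and all 3 KO air libraries lie below all 3 WT air libraries for Xbp1.

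In WT aortas none of the 10 genes passed the test for a change with nicotine. edgeR's quasi-likelihood test with Benjamini-Hochberg adjustment over all tested genes called 0 of 10 at an adjusted p under 0.05, where 0.0205% of all tested genes were called. At an unadjusted p under 0.05 the count was also 0 of 10, beside 9.84% of all tested genes, and DESeq2 and limma voom each called 0 of 10. Fitted log2 fold changes were above 0 for 9 of 10 members with a median of 0.30, beside 49.4% of all tested genes above 0 with a median of -0.0047. The signs of Xbp1, Chac1 and Ern1 among those 9 turned when 1 library was left out.

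Ddit3, the factor CHOP that links prolonged ER stress to cell death, had 19.5, 50.2 and 40.3 CPM in WT nicotine libraries 6, 11 and 12, against 28.0, 25.1 and 23.3 CPM in WT air. WT nicotine 11 and 12 lay above every WT air library and WT nicotine 6 below all of them. Means were 36.7 ± 15.7 CPM in WT nicotine and 25.5 ± 2.38 CPM in WT air (SD, n = 3 each). The log2 fold change was 0.53 ± 0.25 (SE; edgeR adjusted p 0.517), and it was 0.84 without WT nicotine 6 and 0.25 without WT nicotine 11. Exons of Ddit3 overlap 68 bases of Mars on the opposite strand in GENCODE M21, or 3.97% of its exon length, and the kit does not mark strand.

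Atf4, the central factor of the integrated stress response, had 82.4, 166 and 124 CPM in WT nicotine, against 97.6, 76.0 and 113 CPM in WT air. The groups overlapped, again with WT nicotine 6 low and WT nicotine 11 high. The log2 fold change was 0.38 ± 0.21 (SE; edgeR adjusted p 0.592). Herpud1, an ER membrane protein that serves degradation of misfolded proteins, had 98.3, 142 and 178 CPM in WT nicotine, against 127, 102 and 101 CPM in WT air. Herpud1 had a log2 fold change of 0.35 ± 0.19 (SE; edgeR adjusted p 0.585), and WT nicotine 6 lay below the WT air libraries. For Atf4, Ddit3 and Herpud1 alike, the WT nicotine SD exceeded the WT air SD: 41.6 against 18.8 CPM for Atf4, 15.7 against 2.38 CPM for Ddit3 and 40.0 against 15.3 CPM for Herpud1.

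Trib3, a pseudokinase induced by ATF4 and CHOP that also restrains AKT, had 3.74, 3.77 and 4.90 CPM in WT nicotine, against 4.18, 1.57 and 1.21 CPM in WT air. WT air 8 lay among the nicotine libraries and WT air 9 and 10 below them. The log2 fold change was 0.84 ± 0.43 (SE; edgeR adjusted p 0.550), and 1.60 without WT air 8 (adjusted p 0.111). Asns, which makes asparagine from aspartate and glutamine, had 18.5, 9.06 and 15.7 CPM in WT nicotine, against 19.8, 5.44 and 6.45 CPM in WT air. Asns had a log2 fold change of 0.45 ± 0.55 (SE; edgeR adjusted p 0.829), and 1.30 without WT air 8 (adjusted p 0.233). Adipocyte markers summed to 1399 CPM in WT air 8, against 324.3 and 545.5 CPM in WT air 9 and 10. Their sums in WT nicotine were 1281 to 2118 CPM. The part of fat RNA in the fits without WT air 8 was not tested. Chac1, which degrades glutathione, had 10 to 18 counts per library in WT nicotine and 8 to 21 in WT air, too few to resolve any but a large difference (log2 fold change 0.26, 95% interval -1.12 to 1.64).

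The sensors and Xbp1 had the smallest fitted changes in WT aortas. Atf6 was the only member with every WT nicotine library (101, 99.9 and 118 CPM) above every WT air library (95.7, 89.1 and 99.0 CPM), a pattern seen in 7.13% of tested genes. Its log2 fold change was 0.17 ± 0.11 (SE; edgeR adjusted p 0.639). Eif2ak3 (log2 fold change -0.01) and Ern1 (0.03) had 95% intervals of -0.36 to 0.33 and -0.25 to 0.31. Exons of Eif2ak3 overlap 485 bases of Gm43292 on the opposite strand, or 8.05% of their length. Xbp1, which drives genes of folding and secretion, had a log2 fold change of 0.12 with an interval of -0.21 to 0.45. The authors' deposited table for WT lists all 10 genes, 9 with a log2 fold change above 0, and its lowest adjusted p among them was 0.712, for Ddit3.

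In KO aortas, too, none of the 10 genes passed the test for nicotine: edgeR called 0 of 10, and 0% of all tested genes. The count at an unadjusted p under 0.05 was 0 of 10, beside 4.58% of all tested genes, and DESeq2 and limma voom each called 0 of 10. Log2 fold changes were above 0 for 9 of 10 members with a median of 0.18, beside 51.5% of all tested genes. The signs of Eif2ak3 and Ern1 among those 9 turned when 1 library was left out. In the authors' deposited table for KO all 10 genes had an adjusted p of 0.997. Ddit3 had 27.1, 28.9 and 25.6 CPM in KO nicotine libraries 3, 4 and 5, against 23.4, 25.5 and 23.0 CPM in KO air. It was the only member with all KO nicotine libraries above all KO air libraries, by a margin of 25.57 against 25.55 CPM, and 5.13% of tested genes had this order.

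Xbp1 had 104, 73.0 and 91.0 CPM in KO nicotine, against 72.2, 73.5 and 74.5 CPM in KO air. KO nicotine 3 and 5 lay above the air libraries, which were closely spaced, and KO nicotine 4 lay among them. The log2 fold change was 0.28 ± 0.15 (SE; edgeR adjusted p 0.878). Chac1 had a log2 fold change of 1.06 ± 0.67 (SE; edgeR adjusted p 0.878), from 12 to 16 counts in KO nicotine and 1 to 15 in KO air. Asns had 18.1, 27.5 and 8.01 CPM in KO nicotine, against 9.52, 15.6 and 9.82 CPM in KO air, with a log2 fold change of 0.61 ± 0.55 (SE; edgeR adjusted p 0.884). The nicotine libraries of Asns thus lay on both sides of the air libraries.

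**Figure D2:**
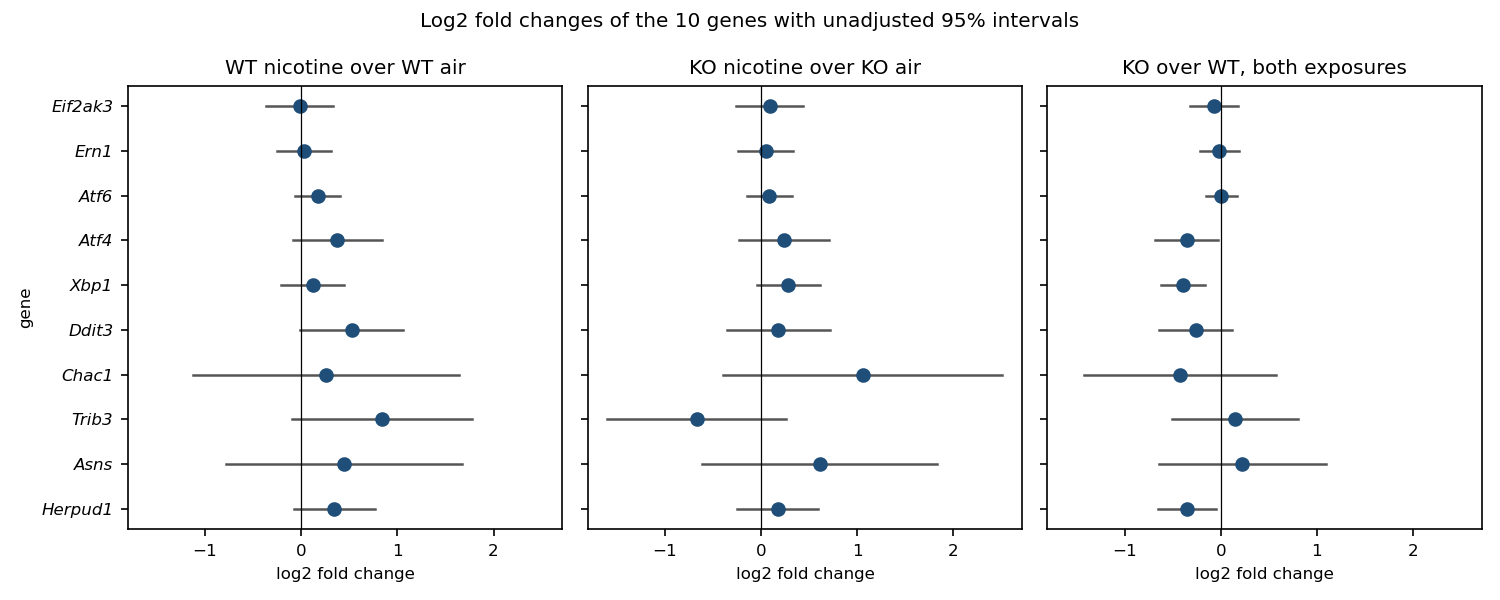
Log2 fold changes of the 10 genes (points) with unadjusted 95% intervals (lines) for nicotine over air in WT, nicotine over air in KO, and KO over WT averaged over exposures. All intervals of the first 2 panels include 0; in the third, those of Atf4, Xbp1 and Herpud1 lie below 0 before adjustment, and none passed the adjusted threshold.

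The difference of the nicotine response between genotypes was tested directly as an interaction, and 0 of 10 members were called by edgeR, DESeq2 or limma voom, with 0% of all tested genes called by edgeR. Trib3 had the lowest unadjusted p of the 10. It had 2.11, 3.72 and 2.35 CPM in KO nicotine and 3.40, 5.47 and 4.13 CPM in KO air, beside the WT values given above. Its log2 fold change with nicotine was -0.67 ± 0.43 in KO and 0.84 ± 0.43 in WT (SE), and their difference was -1.51 ± 0.61 (SE; edgeR unadjusted p 0.0274, adjusted p 0.999). Trib3 rests on 15 to 64 counts per library. Of all tested genes, 4.43% had an unadjusted p under 0.05 for the interaction. The other 9 members had an unadjusted p above 0.05. None of the 10 members, Trib3 included, was shown to respond differently by genotype.

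Between genotypes, Xbp1 had the lowest p of the 10 members both in room air and averaged over exposures, and it did not pass the adjusted threshold. In room air it had 72.2, 73.5 and 74.5 CPM in KO air, against 118, 98.0 and 89.6 CPM in WT air. Every KO air library lay below every WT air library, as for 6.06% of tested genes, and Herpud1 was the other member with that order. The log2 fold change of Xbp1 was -0.48 ± 0.15 (SE; edgeR unadjusted p 0.00803, adjusted p 0.995). edgeR called 0 of 10 members and 0% of all genes for KO air against WT air, with 1 member, Xbp1, at an unadjusted p under 0.05 beside 4.36% of all tested genes, and DESeq2 and limma voom called 0 of 10.

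Under nicotine, edgeR called 0 of 10 members and 0.00684% of tested genes for KO against WT, with 1 member, Herpud1, at an unadjusted p under 0.05 beside 8.34% of all tested genes, and DESeq2 and limma voom called 0 of 10. Herpud1 had 96.9, 125 and 87.3 CPM in KO nicotine, against 98.3, 142 and 178 CPM in WT nicotine, and the groups overlapped. Its log2 fold change was -0.44 ± 0.20 (SE; edgeR adjusted p 0.572). Trib3 was the member with all KO nicotine libraries below all WT nicotine libraries, by 3.72 against 3.74 CPM at the nearest pair, an order that 5.59% of tested genes had. For 9 of 10 members the log2 fold change was below 0, with a median of -0.17, the exception being Asns. The signs of Asns and, among those 9, of Chac1, Atf6, Eif2ak3 and Ern1 turned when 1 library was left out. Of all tested genes, 52.3% lay above 0.

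Averaged over both exposures, the factors Xbp1 and Atf4 and the target Herpud1 had the lowest p-values of the 10 between genotypes. Log2 fold changes of KO over WT were -0.39 ± 0.11 for Xbp1 (SE; edgeR unadjusted p 0.00286, adjusted p 0.359), -0.35 ± 0.14 for Herpud1 (adjusted p 0.523) and -0.35 ± 0.15 for Atf4 (adjusted p 0.568). These 3 of 10 had an unadjusted p under 0.05, beside 8.41% of all tested genes, and edgeR, DESeq2 and limma voom each called 0 of 10, with 0% of all tested genes called by edgeR. For Xbp1 the value ran from -0.45 to -0.33 over fits that left out 1 library each, and its lowest adjusted p in any alternative was 0.0900, with DESeq2. Nicotine averaged over genotypes likewise gave 0 of 10 calls with each of these tools, 0 of 10 at an unadjusted p under 0.05 beside 10.9% of all tested genes, and 0% of all tested genes with edgeR. Library numbers nearly separate the genotypes, so any difference in handling that follows these numbers cannot be told apart from genotype.

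Across the 12 libraries, the members did not vary as 1 block. Of 45 pairs, 32 had a Pearson r above 0 on log2 CPM, with a median r of 0.245 and a range of -0.577 to 0.798. Ddit3 went with Herpud1 (r 0.798) and Atf4 (r 0.795), and Xbp1 with Herpud1 (r 0.670) and Atf4 (r 0.668). Atf6 and Eif2ak3 varied together (r 0.667), as did Trib3 and Asns (r 0.617), whereas Asns showed little relation to Atf4 (r -0.105). Among all tested genes with a standard name, those most like Xbp1 were Hsp90aa1 (r 0.947), P4ha1 (r 0.942) and Hspa8 (r 0.936), which encode cytosolic chaperones and, for P4ha1, a collagen prolyl hydroxylase subunit. Those most like Atf4 were Zfp57 (r 0.945), Brpf1 (r 0.934) and Nasp (r 0.920), and those most like Ddit3 were Mob3c (r 0.922), Zscan29 (r 0.901) and Swt1 (r 0.869). The genes most like each factor were picked for the highest r among the tested genes, and no p was computed for them. A high r picked this way does not by itself show a relation. All these values describe 12 libraries that share group differences, depth scaling and tissue content.

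Asns varied with fat-cell RNA. Adipocyte markers (Adipoq, Plin1, Lep, Cidec and Cfd, all 5 detected in all 12 libraries) summed to 664 to 2170 CPM in KO nicotine, 773 to 1196 in KO air, 1281 to 2118 in WT nicotine and 324 to 1399 in WT air. On log2 scales Pearson's r between Asns and this sum was 0.885 over 12 libraries (permutation test p 0.00019, adjusted p 0.0209 over 110 relations), and Spearman's rho was 0.839 (permutation test p 0.00117, adjusted p 0.129). Without WT air 9 and 10, the libraries farthest from the median, r was 0.791, and within groups it was 0.921. Asns also had r -0.833 with the summed contractile smooth muscle markers (rho -0.748, adjusted permutation p 0.0466 for r and 0.389 for rho) and r 0.800 with 2 brown adipocyte markers (rho 0.713, adjusted permutation p 0.0466 and 0.425). Leaving out the 2 farthest libraries gave r -0.803 and 0.629, and within groups r was -0.809 and 0.780. These 3 of the 110 relations, of 10 genes with 11 marker sums, passed by Pearson's r and 0 passed by rho. The 3 marker sums need not be independent, and their relation to each other was not tested. WT air 9 had the lowest adipocyte and brown adipocyte sums and the highest smooth muscle sum. KO nicotine 4 had the highest adipocyte and brown adipocyte sums, with 23880 CPM of smooth muscle markers. WT nicotine 6 had 2118 CPM of adipocyte but 668 CPM of brown adipocyte markers. The relations were computed after the data had been seen, and the part of fat or muscle RNA in the Asns fold changes was not tested.

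**Figure D3:**
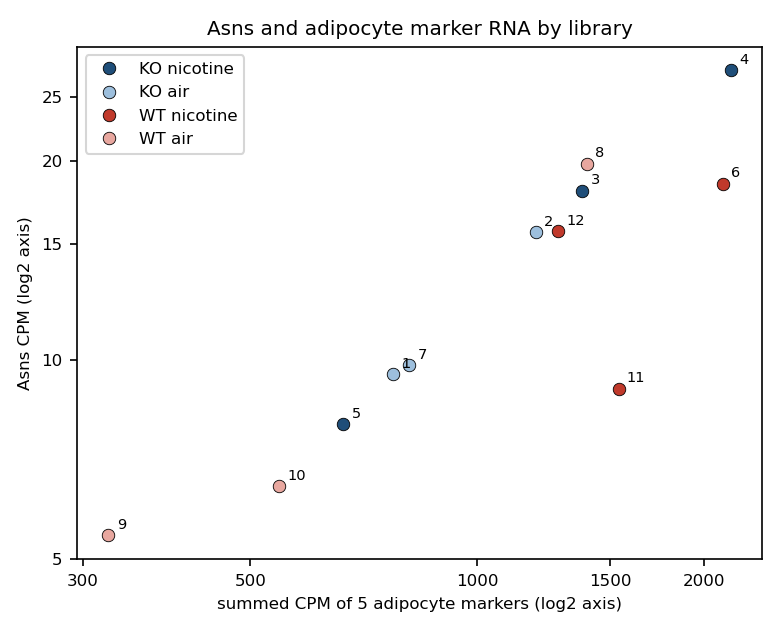
Asns CPM against the summed CPM of 5 adipocyte markers in each library, both on log2 axes, with libraries numbered and coloured by group. Libraries with more adipocyte RNA had more Asns; WT nicotine 11, at 9.06 CPM Asns and 1540 CPM markers, lies below the trend of the others.

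Trib3 had r 0.658 with the adipocyte sum (adjusted permutation p 0.558), with rho 0.462 (adjusted permutation p 0.750); r was 0.223 without the 2 farthest libraries and 0.709 within groups. With the brown adipocyte sum it had r 0.533 (rho 0.469, adjusted permutation p 0.839 and 0.750), 0.325 without the 2 farthest libraries and 0.767 within groups. Immediate early genes, which respond within minutes to stimuli and handling, summed to 1206, 980 and 2343 CPM in KO nicotine, 2546, 1096 and 1602 in KO air, 3071, 3582 and 1607 in WT nicotine and 526, 891 and 2378 in WT air. WT nicotine 11, with the highest Ddit3 and Atf4, had the highest of these sums, while WT nicotine 6, with the next highest, had the lowest Ddit3. Over 12 libraries r with this sum was 0.0816 for Ddit3 (rho -0.189, adjusted permutation p 0.887 for r and 0.982 for rho) and 0.373 for Atf4 (rho 0.378, adjusted permutation p 0.839 and 0.836). Without the 2 farthest libraries r was -0.424 for Ddit3 and 0.222 for Atf4, and within groups it was -0.249 and 0.251. Plasma cells depend on Xbp1, and 5 of their markers summed to 23.0 to 36.1 CPM in KO nicotine, 36.6 to 38.3 in KO air, 27.2 to 44.1 in WT nicotine and 22.4 to 29.4 in WT air. The KO air and WT air sums did not overlap, with KO air, the group with the lowest mean Xbp1, higher. Jchain had 8.08, 7.52 and 8.59 CPM in KO air, against 0.435 to 3.30 CPM in the other 9 libraries. Sdc1, which other cells also express, made up most of the sum at 19.6 to 39.6 CPM, while Tnfrsf17 stayed at or below 2.99 CPM, Mzb1 at or below 1.73 CPM and Derl3 at or below 1.32 CPM, at 0 in KO air 7. Over 12 libraries Xbp1 had r -0.338 with this sum (rho -0.287, adjusted permutation p 0.856 for r and 0.946 for rho), with r -0.485 without the 2 farthest libraries and -0.269 within groups.

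The wider pathways were described through 10 lists of further genes, none of which had a called gene in any comparison by edgeR. Genes listed as ATF4 targets among stress factors and secreted proteins had 8 of 11 tested genes above 0 for nicotine in WT, with a median log2 fold change of 0.34, and 4 of 11 had an unadjusted p under 0.05 with a positive change and 1 with a negative change, beside 5.43% and 4.41% of all tested genes. Cebpb, a factor that pairs with ATF4, had 103.5, 115 and 74.1 CPM in WT nicotine, against 55.0, 29.7 and 42.1 CPM in WT air, and the groups did not overlap. All WT nicotine libraries lay above all WT air libraries for 7.13% of tested genes, and Cebpb was picked for the lowest p of its list. Cebpb had a log2 fold change of 1.21 ± 0.26 (SE; edgeR adjusted p 0.194). Macrophage markers, 6 genes detected in every library, also separated these groups, summing to 496, 391 and 352 CPM in WT nicotine, against 228, 241 and 212 CPM in WT air, and their part in the Cebpb difference was not tested. Sesn2, which restrains mTORC1, had a log2 fold change of 1.11 ± 0.30 (SE; edgeR adjusted p 0.270). In KO the same list had 8 of 11 above 0 with a median of 0.18, and 0 of 11 had an unadjusted p under 0.05, beside 4.58% of all tested genes. The lowest p was that of Ddit4, another mTORC1 inhibitor, at 0.65 ± 0.31 (SE; edgeR adjusted p 0.878).

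Amino acid supply genes targeted by ATF4 had 11 of 17 above 0 for nicotine in WT (median 0.21) and 10 of 17 in KO (median 0.07), beside 49.4% and 51.5% of all tested genes. At an unadjusted p under 0.05, 2 of 17 had a positive and 0 a negative change in WT, beside 5.43% and 4.41% of all tested genes. In KO these were 3 and 1 of 17, beside 2.48% and 2.1%. Slc3a2, the heavy chain shared by several amino acid transporters, had 88.9, 82.7 and 88.0 CPM in WT nicotine, against 60.5, 54.3 and 65.6 CPM in WT air, again without overlap. This order held for 7.13% of tested genes, and Slc3a2 too was picked for the lowest p of its list. The log2 fold change of Slc3a2 was 0.53 ± 0.12 in WT (SE; edgeR adjusted p 0.194) and 0.30 ± 0.12 in KO (adjusted p 0.878). Gpt2, a mitochondrial alanine aminotransferase, had 0.92 ± 0.29 in WT (SE; edgeR adjusted p 0.340), and Cth, which makes cysteine, 2.14 ± 0.86 in KO (adjusted p 0.878). Cth had 9.89, 3.15 and 0.486 CPM in KO nicotine 3, 4 and 5, against 0.850, 1.196 and 0.991 CPM in KO air. Its highest value was in KO nicotine 3, the library with 2334 CPM of hepatocyte markers and the highest skeletal muscle sum. KO nicotine 5 lay below all KO air libraries. The part of liver or skeletal muscle RNA in this fold change was not tested. Cytosolic aminoacyl-tRNA synthetases, by contrast in sign, had 1 of 12 above 0 in WT (median -0.10) and 10 of 12 in KO (median 0.12); the lowest p-values were those of Wars in WT (-0.23 ± 0.13 (SE), edgeR adjusted p 0.570) and Eprs in KO (0.23 ± 0.11 (SE), edgeR adjusted p 0.878). For KO air against WT air the synthetases had 1 of 12 above 0 (median -0.14). For KO nicotine against WT nicotine they had 9 of 12 above 0 (median 0.07). The difference in nicotine response between genotypes was tested only gene by gene, as the interaction, and 0 of 12 were called, with 0 of 12 at an unadjusted p under 0.05.

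Genes that control eIF2 alpha had 7 of 12 above 0 for nicotine in WT (median 0.04) and 9 of 12 in KO (median 0.12). Ppp1r15b, a subunit that directs phosphatase to eIF2 alpha, had the lowest p of that list in both genotypes, with log2 fold changes of 0.49 ± 0.16 in WT (SE; edgeR adjusted p 0.355) and 0.29 ± 0.16 in KO (adjusted p 0.878). Lists of ER-associated degradation (11 of 15 above 0 in WT and 11 of 15 in KO), ER translocation and COPII export (6 of 12 and 10 of 12) and genes linked to CHOP and cell death (4 of 8 and 5 of 8) had medians between -0.03 and 0.11 in WT and KO. Sensors and their processing enzymes had 1 of 8 above 0 in WT (median -0.17) and 2 of 8 in KO (median -0.06), with Creb3l2, a membrane-bound factor, at -0.37 ± 0.17 in WT (SE; edgeR adjusted p 0.505). The mitochondrial unfolded protein response had 6 of 8 above 0 in WT (median 0.15) and 8 of 8 in KO (median 0.27).

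ER chaperones and folding enzymes lay mostly below 0 between genotypes in room air. For KO air against WT air, 1 of 17 lay above 0 with a median log2 fold change of -0.19, beside 50.2% of all tested genes above 0, and 4 of 17 had a negative change with an unadjusted p under 0.05, beside 2.12% of all tested genes. Other lists also lay mostly below 0 here. Counts above 0 were 1 of 12 for synthetases (median -0.14), 2 of 12 for ER translocation (-0.14) and 3 of 15 for ER-associated degradation (-0.11). They were 6 of 17 for amino acid supply, 3 of 8 for the mitochondrial list and 4 of 8 for sensors. The rest had 7 of 12 (eIF2 alpha control), 7 of 11 (ATF4-target stress factors) and 5 of 8 (CHOP-linked genes). For KO nicotine against WT nicotine the chaperones and folding enzymes had 5 of 17 above 0 (median -0.10), beside 52.3% of all tested genes. There 0 of 17 had an unadjusted p under 0.05, beside 8.34% of all tested genes. For nicotine against air the chaperones and folding enzymes had 9 of 17 above 0 in WT (median 0.003) and 14 of 17 in KO (median 0.18). Dnajb9, a co-chaperone of BiP that is a target of XBP1, had 73.4, 48.1 and 45.8 CPM in KO nicotine, 38.6, 39.6 and 42.6 in KO air, 58.7, 59.5 and 77.9 in WT nicotine and 58.2, 54.1 and 54.2 in WT air. Its log2 fold change was 0.47 ± 0.17 for nicotine in KO (SE; edgeR adjusted p 0.878) and -0.35 ± 0.12 for KO over WT averaged over exposures (adjusted p 0.472). KO air was the group with the lowest mean for Dnajb9, as for Xbp1.

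Hspa5, which encodes BiP, the main ER chaperone, had 878, 434 and 741 CPM in KO nicotine, 486, 457 and 438 in KO air, 553, 724 and 1148 in WT nicotine and 819, 861 and 589 in WT air. For KO over WT averaged over exposures, the log2 fold change of Hspa5 was -0.48 ± 0.20 (SE; edgeR adjusted p 0.564). Manf, a secreted ER stress protein chosen after its values were seen, had 24.7, 20.9 and 30.5 CPM in KO air, against 47.8, 57.5 and 41.2 CPM in WT air (log2 fold change -0.95 ± 0.33 (SE), edgeR adjusted p 0.995). Dnajc3, an inhibitor of PERK, had -0.31 ± 0.11 for KO over WT averaged over exposures (SE; edgeR adjusted p 0.470). In this comparison Tnfrsf10b, a death receptor induced by CHOP, had -0.48 ± 0.14 (SE; edgeR adjusted p 0.370). Bcl2l11, from the same list of genes linked to CHOP and cell death, went the other way at 0.47 ± 0.17 (adjusted p 0.492). Of that list 6 of 8 genes lay above 0, beside 52% of all tested genes. KO nicotine 3, the library with the highest liver and skeletal muscle sums, had the highest Xbp1 and Hspa5 of the KO libraries. Without this library, Xbp1 averaged -0.45 for KO over WT. Over 12 libraries Xbp1 had r -0.231 with the hepatocyte sum (rho -0.329, adjusted permutation p 0.887 for r and 0.943 for rho). Without the 2 farthest libraries r was -0.477, and within groups it was 0.343. With the skeletal muscle sum r was 0.362 (adjusted permutation p 0.843), 0.0148 without the 2 farthest and 0.435 within groups. The part of liver or skeletal muscle RNA in the chaperone levels was not tested.

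**Figure D4:**
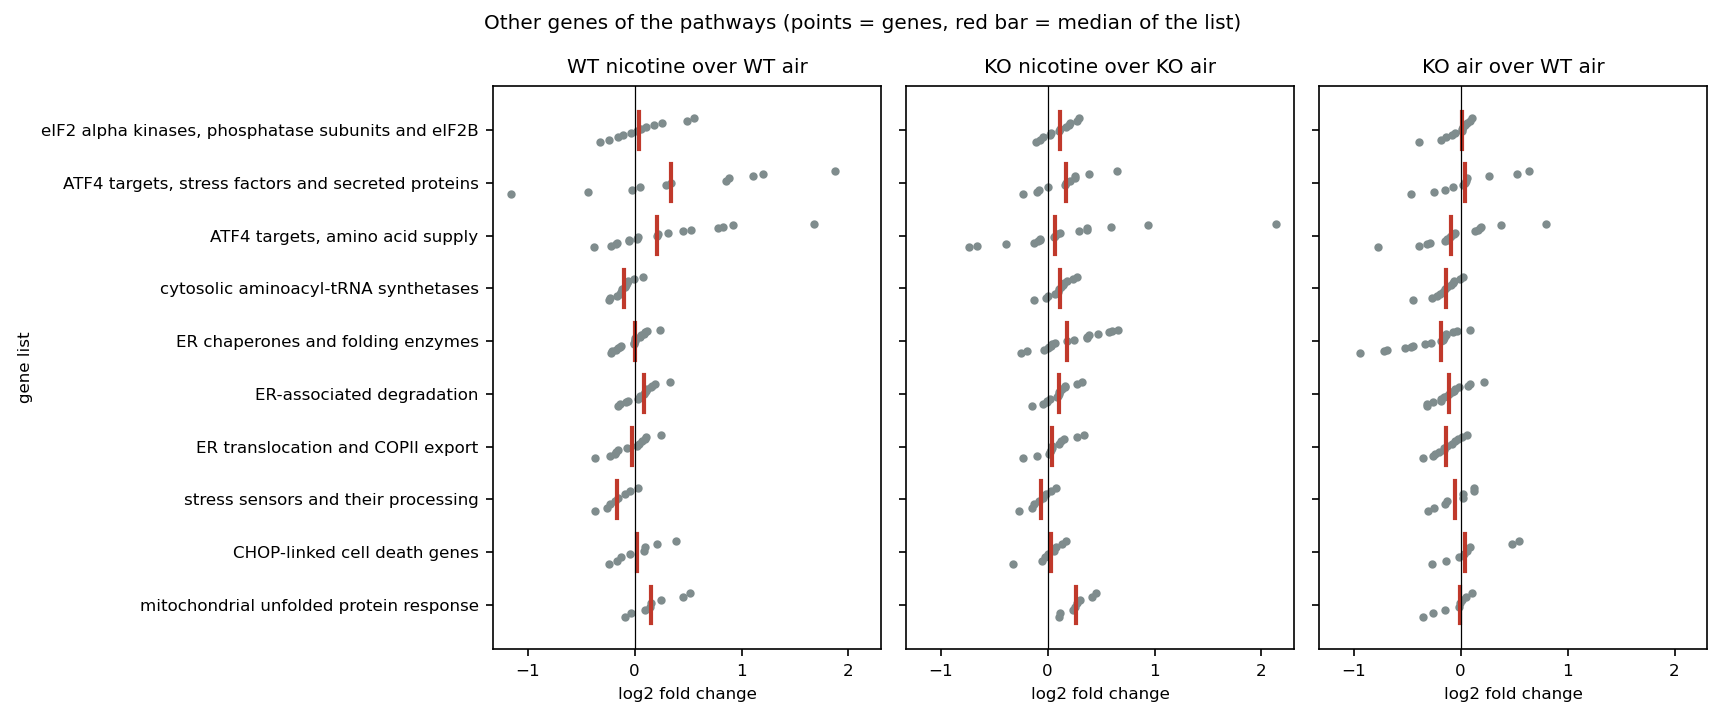
Log2 fold changes of the tested genes of the 10 pathway lists (points) with the median of each list (red bar), for nicotine over air in WT, nicotine over air in KO, and KO air over WT air. The ER chaperone points lie almost all left of 0 for KO air over WT air (1 of 17 above 0). Points of the aminoacyl-tRNA synthetases (1 of 12 above 0), ER translocation (2 of 12) and ER-associated degradation (3 of 15) also lie mostly left of 0 there. In each list, 0 genes passed the adjusted threshold.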

How the data were processed

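RNA of 12 thoracic aorta libraries was analysed. Per the submitters' processing notes, the authors used HTSeq and mm9, and the deposited values are raw counts, 1 whole number per gene and library. The kit was SMART-Seq v4, per the labels' protocols. For the aligner, annotation and strand setting, nothing is stated (not given in the sources used here). The authors also deposited, for nicotine against air in each genotype, tables of log2 fold changes and of p-values, unadjusted and adjusted, per the file headers; only the members' values were read from them.

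All 27933 genes entered 1 fit. edgeR 4.0.16 (filterByExpr, TMM, robust quasi-likelihood, 4 group means, 8 residual degrees of freedom) was run in R 4.3.3. Genes were called at a Benjamini-Hochberg adjusted p under 0.05 over 14621 tested genes. Each standard error was derived as the size of the log2 fold change divided by the root of its F statistic; the median was 0.221 between groups and 0.313 for the interaction. Normalisation factors ran from 0.962 to 1.05. CPM are TMM-scaled; log2 CPM for correlations used a prior count of 2, and marker sums a pseudocount of 1. Alternatives were DESeq2 size factors, no filter, DESeq2 1.42.0, limma 3.58.1 voom, only the groups compared, and leaving out each library. Python 3.11.15, numpy 2.4.6 and matplotlib 3.10.9 were also used, and the procedure was tested on simulated data.

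Members and lists were chosen with earlier results of these data known. Beyond the members, the text names from each list the genes called in a comparison, or else those with the smallest p, at most 2, for nicotine in WT, nicotine in KO and KO against WT averaged over exposures, and gives examples of these. Of the listed genes, Fgf21, Srp54a and Ern2 were not tested. The labels do not say that libraries are separate mice, so p-values measure the spread between libraries, which may be partly technical. The member values of KO against WT averaged over exposures under each alternative, and the marker correlations, were added after seeing the data.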

Additional observations from a re-analysis of the deposited data

How the results depend on the processing

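No paired analysis was run because the labels name no pairs of libraries and do not say what the library numbers stand for. The count of called members was 0 of 10 in all 7 comparisons under every alternative run. Of 760 alternative values of 60 member log2 fold changes, 701 kept their sign and side of the threshold and 59, in 26 results, turned sign; those 26 were at most 0.31 in size, and the cause was not tested. With limma voom the interaction of Asns was -0.19, against 0.16 with edgeR. The other turned signs came from leaving out 1 library. Ranges were, for nicotine in WT, Xbp1 -0.0012 to 0.27, Chac1 -0.0043 to 0.71, Eif2ak3 -0.096 to 0.11 and Ern1 -0.043 to 0.094. For nicotine in KO they were Eif2ak3 -0.066 to 0.20 and Ern1 -0.051 to 0.12. For the interaction they were Atf4 -0.37 to 0.11, Asns -0.69 to 0.51, Herpud1 -0.38 to 0.0397, Eif2ak3 -0.052 to 0.21 and Ern1 -0.081 to 0.097. For KO air against WT air they were Ddit3 -0.15 to 0.0034, Asns -0.17 to 0.99, Atf6 -0.019 to 0.11, Eif2ak3 -0.23 to 0.034 and Ern1 -0.11 to 0.075. For KO nicotine against WT nicotine they were Chac1 -0.20 to 0.067, Asns -0.15 to 0.65, Atf6 -0.091 to 0.042, Eif2ak3 -0.14 to 0.053 and Ern1 -0.087 to 0.068. For KO against WT averaged over exposures they were Trib3 -0.015 to 0.52, Asns -0.0021 to 0.64, Atf6 -0.028 to 0.046, Eif2ak3 -0.13 to 0.0082 and Ern1 -0.062 to 0.034. The number of genes called among all tested genes depended on the setting. For nicotine in WT it was 3 with edgeR and limma voom, 7 with DESeq2 size factors, 21 with no filter, 100 with DESeq2, 0 with only the groups compared and 0 to 34 leaving out 1 library. For KO nicotine against WT nicotine it was 1 with edgeR, limma voom and only the groups compared, 6 with DESeq2 size factors, 7 with no filter, 77 with DESeq2 and 0 to 4 leaving out 1 library. For KO against WT averaged over exposures edgeR and voom called 0, the fit with no filter 12 and DESeq2 115; for nicotine averaged over genotypes these were 0, 6 and 92, with up to 38 leaving out 1 library. For KO air against WT air DESeq2 called 12 and the fit of only those groups 2, and for the interaction DESeq2 called 4 and the fit with no filter 1, where edgeR called 0. For nicotine in KO every setting called 0. Depth limits Chac1, with 1 to 21 counts per library, and the spread in WT nicotine limits Ddit3, Atf4 and Herpud1.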
